A study of Mus musculus with 6 samples.

Results

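The C-type lectin-like receptors of the NKR-P1 (Klrb1), CD94/NKG2 (Klrc, Klrd), NKG2D (Klrk), Klre and Klrg groups were examined in iNKT cells of mouse liver. The 10 genes Klrb1a, Klrb1b, Klrb1c, Klrb1f, Klrc1, Klrc2, Klrd1, Klre1, Klrg1 and Klrk1 were taken by name from a table of 12942 genes. The cells were sorted for the CD1d tetramer and for YFP. Control mice had the genotype Tbx21Cre Rosa26-YFP+. The mice labelled cKOHet carried 2 floxed Ets1 alleles (Ets1F/F) and 1 floxed Tbx21 allele (Tbx21F/+) with the same Cre and reporter. The name Tbx21Cre ties Cre to Tbx21, the gene of the T-box factor T-bet, and both groups carry this Cre. How the Cre line was built is not given here, and which cells deleted the floxed alleles was not tested. Each group had 3 libraries, numbered 1, 2 and 4. Control replicate 4 and cKOHet replicate 1 are titled iNKT, and the other libraries iNKT1. The sources used here give no ages. The table's codes for replicate 1 of both groups hold 2 names each, and whether 2 animals were pooled is not stated.

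These receptors let natural killer (NK) cells and innate-like T cells read the state of their neighbours. Most are disulphide-linked dimers. Some inhibit through tyrosine motifs in their tails that recruit phosphatases such as SHP-1, and others activate through adaptors such as DAP10, DAP12 or the Fc receptor gamma chain. Invariant NKT cells acquire several of them as they mature towards the type 1, T-bet-dependent state, and NK1.1, the product of Klrb1c, is a classical marker of that state. All values below are normalised read counts per gene, as the authors deposited them. Changes are log2 fold changes of (normalised count + 1), cKOHet minus control, and the threshold for a call was an adjusted p under 0.05 in limma.

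The libraries summed to between 4996523 and 5219483 normalised counts. Ets1 was at 6255 to 7787 in controls and 441 to 596 in cKOHet libraries. Tbx21 was at 2434 to 2765 and 2127 to 2316 and was not called (-0.22, adjusted p = 0.196). T cell markers were high in every library, with 9 of 9 in the table and a summed level of 28934 to 35972 in controls and 30427 to 31781 in cKOHet libraries. Within that list, the T cell receptor constant genes Trbc1 (-0.77) and Trbc2 (-1.20) were called lower and Zbtb16, the gene of the iNKT factor PLZF, higher (0.53). The 7 NK cell markers summed to 184 to 214 and 267 to 395. Ncr1, the defining NK receptor, was at 8.45 to 9.47 and 5.52 to 7.05. Every cKOHet value of Ncr1 lay below every control, but the gene was too low to be tested. Of 6 tested NK markers, Eomes, Klra8 and Tyrobp were called higher and 3 were not called. Klra8 was under 10 in every control, so it passed the filter only through cKOHet libraries and could only rise. Of the 7, Klra4 and Klra8 are Ly49 receptors themselves. Of the CD8 pair, Cd8a was at 10.7 to 20.1 and 237 to 1657 and was called higher, while Cd8b1 was at 3.56 to 31.5 and 13.6 to 35.4 and was not called (adjusted p = 0.607). A set of 6 of 7 myeloid markers summed to 39.6 to 86.5 and 157 to 287. Of 5 tested myeloid markers, Csf1r, Clec4f and Itgam were called higher and 2 were not called. Among all genes tested, 11.5% were called higher. The 6 hepatocyte markers summed to 207 to 383 and 251 to 618, and neither of the 2 tested was called. Of 5 B cell markers, only Ighm was in the table, at 1889 to 2063 and 765 to 1048. Ighm and Pecam1, the endothelial marker tested, were called lower (-1.06 and -2.16). Of 4 gamma-delta T cell markers, 3 were in the table and summed to 2051 to 2512 and 2710 to 3316. Tcrg-C2 was called higher among them (0.59, adjusted p = 0.00608), and the other 2 were not called. Single marker genes were named after their values were seen. The part of these cells in the receptor values was not tested. In sorted populations, fewer cells with a transcript and less transcript per cell cannot be told apart.

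All 10 receptor genes passed the filter on low values. The groups of libraries did not overlap at 6 of them, and the same 6 passed the test, 2 upward and 4 downward. Over all 11226 genes tested, 21.4% were called (11.5% higher and 9.97% lower), and 35.8% did not overlap (19.1% higher and 16.7% lower). The genes that rose, Klrg1 and Klrb1b, both encode inhibitory receptors. Those that fell were Klre1, Klrb1f, Klrk1 and Klrc2. Klrb1c, Klrc1, Klrd1 and Klrb1a were not called. The median change of the 10 genes was -0.61, against 0.01 over all genes tested. Leaving out control replicate 1, 2 or 4 gave 5, 7 and 5 called receptors, against 17.3%, 17.5% and 16.8% of all genes. Leaving out cKOHet replicate 1, 2 or 4 gave 6, 5 and 5, against 19.7%, 17.2% and 17.8%.

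**Figure D1:**
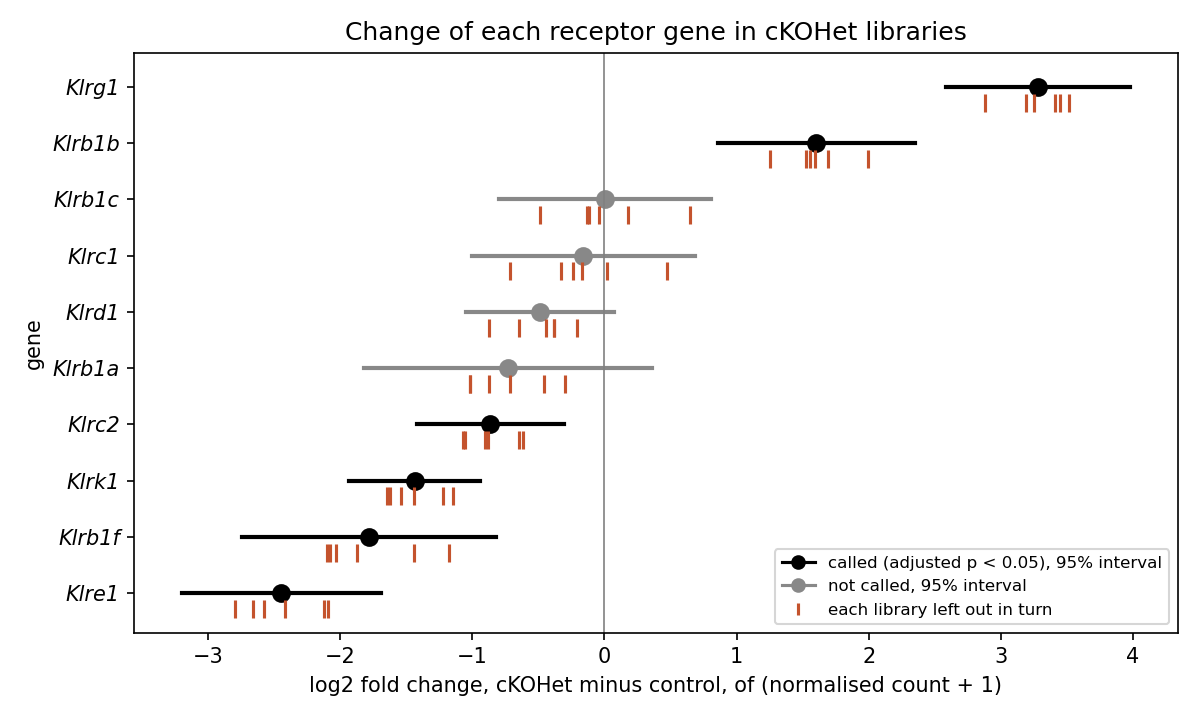
Log2 fold change of each receptor gene (horizontal axis, cKOHet minus control, of normalised count + 1), with its 95% interval, and the values with each of the 6 libraries left out in turn (short vertical marks). Klrg1 (3.28) and Klrb1b (1.6) lie right of 0, Klre1 (-2.45), Klrb1f (-1.78), Klrk1 (-1.44) and Klrc2 (-0.86) left of it, and the intervals of the other 4 genes include 0.

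Klrk1 encodes NKG2D, an activating receptor that pairs with DAP10 and binds stress-induced relatives of MHC class I. The gene (ENSMUSG00000030149) lies on mm10 chromosome 6 from 129610323 to 129623864, on the minus strand. Its level was 887, 666 and 1206 in control replicates 1, 2 and 4 and 426, 220.4 and 379 in cKOHet replicates 1, 2 and 4. Every cKOHet library was below the lowest control. The log2 fold change was -1.44 (SE 0.23, adjusted p = 0.000322), a 2.69-fold difference of means. Klrk1 stayed called in all 6 fits with 1 library left out, with values from -1.65 to -1.15.

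Hcst, which encodes DAP10, was also lower in each cKOHet library, at 439, 424 and 441 in controls against 301, 297 and 258. The change was -0.61 on the log2 scale (SE 0.14, adjusted p = 0.00457), smaller than that of its receptor. Per kilobase of exon, the ratio of Klrk1 to Hcst was 0.158 to 0.275 in controls and 0.0747 to 0.148 in cKOHet libraries. Hcst was in a signalling list, but was singled out after its values were seen.

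The CD94/NKG2 receptors are heterodimers of CD94, the product of Klrd1, with an NKG2 chain, and recognise the nonclassical MHC molecule Qa-1. NKG2A, from Klrc1, makes the dimer inhibitory, and NKG2C, from Klrc2, makes it activating. Klrc2 (ENSMUSG00000052736, chromosome 6, 129647496 to 129660689, minus strand) was at 175, 139 and 261 in controls and 133, 75.0 and 104 in cKOHet libraries. The groups were close, since cKOHet replicate 1 lay just under control replicate 2. The log2 fold change was -0.86 (SE 0.26, adjusted p = 0.0275). Klrc2 was no longer called when control replicate 1, control replicate 4, cKOHet replicate 2 or cKOHet replicate 4 was left out (adjusted p = 0.0523, 0.157, 0.12 and 0.0655), and without the mean-variance trend (0.111).

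Klrc1 (ENSMUSG00000030167, 129666015 to 129678973, minus strand), the inhibitory partner, was not called. It was at 341, 176 and 912 in controls and 344, 265 and 429.8 in cKOHet libraries, so that the cKOHet values lay inside the control range. Its change was -0.16 (95% interval -1.0 to 0.68, adjusted p = 0.832), which leaves room for changes of 2-fold downward. Without control replicate 4, the library at 912, the value was 0.47 (adjusted p = 0.268).

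Klrd1 (ENSMUSG00000030165, 129591782 to 129598775, plus strand), the shared CD94 chain, was at 431, 217 and 549.5 in controls and 329, 228 and 247 in cKOHet libraries. All 3 cKOHet values lay above control replicate 2 and below the other controls. Klrd1 was not called (-0.49, 95% interval -1.05 to 0.07, adjusted p = 0.219). Without control replicate 2 it was -0.88 and called (adjusted p = 0.00547).

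Within the NKG2A and NKG2C pair, NKG2A transcripts were the larger part in every library. Per kilobase of exon, Klrc1 made up 85.1%, 78.8% and 91.1% of their sum in controls and 88.4%, 91.2% and 92.4% in cKOHet libraries, and these ranges overlapped. The genes are close copies. Of the 50-base windows in GENCODE transcripts of Klrc1, 36.6% also occur in Klrc2, and 12.4% of those of Klrc2 occur in Klrc1. Reads from shared stretches cannot be assigned to 1 of them, and how they were counted is not stated.

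Klre1 encodes a chain that pairs with the products of Klri1 or Klri2 to form an inhibitory or an activating receptor. It had the deepest fall among the 10 genes. Klre1 (ENSMUSG00000050241, 129577905 to 129585827, plus strand) was at 175, 156 and 345 in controls and 62.5, 23.9 and 36.5 in cKOHet libraries. The highest cKOHet library was under the lowest control. Klre1 fell by 2.45 on the log2 scale (SE 0.35, adjusted p = 0.000115), a 5.51-fold difference of means, and it ranged from -2.80 to -2.09 with 1 library left out, called each time. Its partner Klri2, named after its values were seen, was too low to be tested, at 11.0, 8.49 and 44.0 in controls and 5.05, 7.33 and 6.29 in cKOHet libraries.

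**Figure D2:**
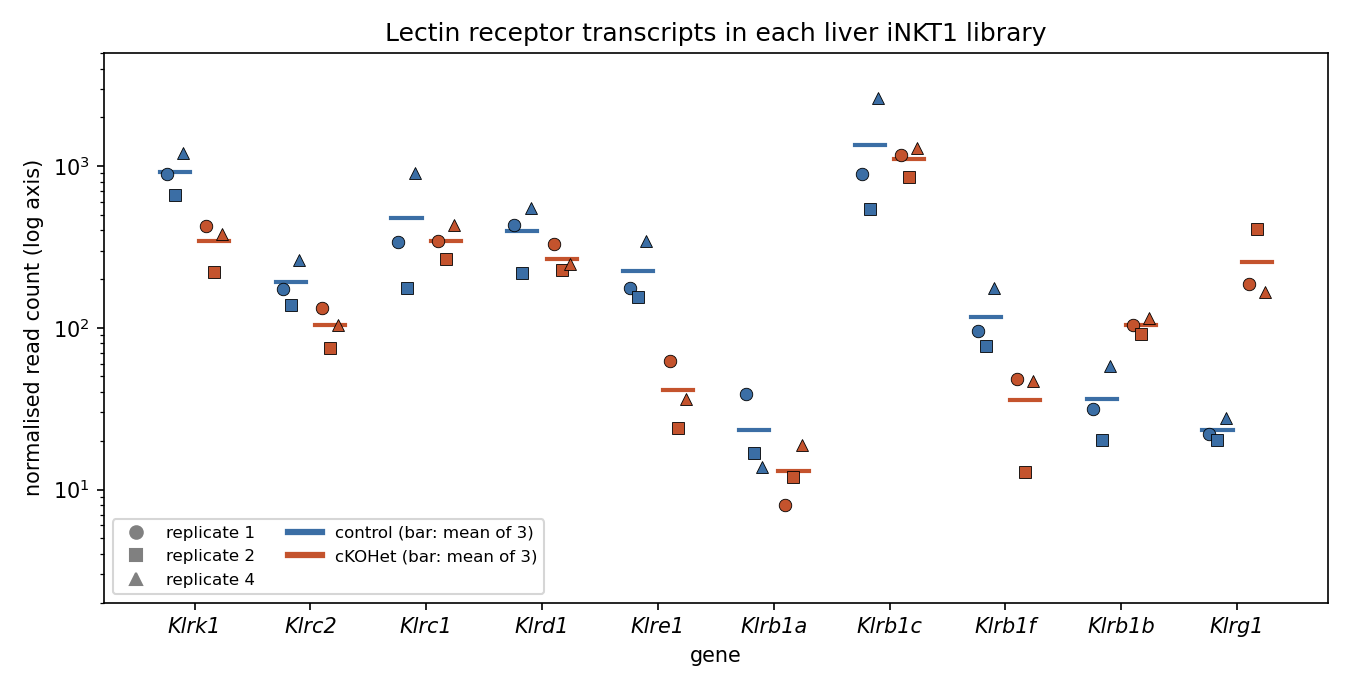
Normalised read count (log axis) of the 10 receptor genes in each library, with marker shape for the replicate number and bars for group means (n = 3). The groups are apart for Klrk1, Klrc2, Klre1, Klrb1f, Klrb1b and Klrg1 and overlap for Klrc1, Klrd1, Klrb1a and Klrb1c.

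The NKR-P1 receptors are homodimers, and some of them bind C-type lectin-like ligands encoded beside them. Klrb1b, an inhibitory member that recognises Clr-b (Clec2d), rose. Klrb1f, whose product recognises Clr-g (Clec2i), fell. Klrb1c and Klrb1a, which encode activating members, were not called. The 150 bases before the RefSeq transcription start are shown for all 4 genes, because relatives with similar upstream sequence moved in opposite directions. Sequences are from RefSeq on GRCm38.p6, read 5′ to 3′ on the gene's strand. For Klrb1b, which has more than 1 RefSeq start, the upstream start was used. Capitals mark GGAA, the core bound by Ets factors, or TTCC, its complement.
Klrb1b (chr6:128826316-128826465, minus strand): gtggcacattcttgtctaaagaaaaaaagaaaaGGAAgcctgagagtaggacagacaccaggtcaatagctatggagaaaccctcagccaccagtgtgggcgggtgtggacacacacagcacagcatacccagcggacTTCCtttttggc
Klrb1f (chr6:129045751-129045900, plus strand): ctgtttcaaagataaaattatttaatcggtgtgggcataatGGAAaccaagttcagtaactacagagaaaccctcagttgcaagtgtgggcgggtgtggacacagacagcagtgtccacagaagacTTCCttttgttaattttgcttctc
Klrb1a (chr6:128622935-128623084, minus strand): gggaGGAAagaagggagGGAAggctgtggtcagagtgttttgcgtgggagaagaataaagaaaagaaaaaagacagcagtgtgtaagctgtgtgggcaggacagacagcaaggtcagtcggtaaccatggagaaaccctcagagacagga
Klrb1c (chr6:128788642-128788791, minus strand): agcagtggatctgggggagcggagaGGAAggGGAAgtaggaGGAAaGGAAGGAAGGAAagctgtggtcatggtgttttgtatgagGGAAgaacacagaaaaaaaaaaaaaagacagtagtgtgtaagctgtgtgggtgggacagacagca

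In a global alignment, Klrb1b and Klrb1f were identical at 100 of 134 aligned bases (74.6%), and Klrb1a and Klrb1c at 93 of 110 (84.5%). Bases set against gaps were left out. The other pairs were identical at 54.7% to 67.8% of aligned bases. The TTCC nearest the start in Klrb1b and in Klrb1f lies in the complement of AGGAAGT, a longer Ets-type motif, which begins 14 bases before the start in Klrb1b and 26 bases before it in Klrb1f. So the riser and the faller both hold this match. Windows of 300 bases (250 before and 50 after the start) were searched on both strands for 8 of the 10 genes, all but Klrd1 and Klrg1. A gene was counted if any of its windows held the motif, and some have more than 1 window, so these counts are not like shares of windows. AGGAAGT was found for 3 of the 8 (Klrb1a, Klrb1b and Klrb1f) and in 9.4% of all 32851 windows. In Klrb1a it begins after the start, at base 40 of the transcript. CGGAAGT, found in 6.4% of all windows, and GGTGTGA, a T-box motif found in 4.0%, were in none of the 8. TGTGGTT, a Runx motif in 5.3% of windows, was found for Klrk1 and in 1 of the windows of Klre1. GGAA itself was found for all 8 and in 96.0% of all windows. Longer motifs that contain GGAA overlap with it by construction.

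Klrb1b (ENSMUSG00000079298, 128813706 to 128826331, minus strand) was at 31.2, 20.2 and 58.2 in controls and 105, 90.9 and 115 in cKOHet libraries. The lowest cKOHet library was above the highest control. Klrb1b rose by 1.6 on the log2 scale (SE 0.35, adjusted p = 0.00373), a 2.84-fold difference of means. It stayed between 1.25 and 2.0 with 1 library left out and was called each time.

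Klrb1f (ENSMUSG00000030154, 129045901 to 129057464, plus strand) was at 96.1, 77.0 and 175 in controls and 48.4, 12.8 and 46.9 in cKOHet libraries. Every cKOHet library was below every control, and cKOHet replicate 2 was the lowest of all. Klrb1f fell by 1.78 on the log2 scale (SE 0.45, adjusted p = 0.00979). The value was -1.18 without cKOHet replicate 2 (adjusted p = 0.0303), and the call ended without control replicate 4 (-1.45, adjusted p = 0.0656) or without the mean-variance trend (0.0845). No 50-base window of Klrb1f transcripts occurred in another gene.

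Klrb1c (ENSMUSG00000030325, 128778485 to 128789215, minus strand), the NK1.1 gene, had the highest group means per kilobase of the 10 genes, with control libraries that overlapped those of Klrd1, and was not called. It was at 892, 545 and 2626 in controls and 1169, 859 and 1289 in cKOHet libraries. Control replicate 4 was above every cKOHet library, control replicate 2 was below every one, and control replicate 1 lay within their range. Its change of 0.01 (95% interval -0.80 to 0.81, adjusted p = 0.994) turned negative without control replicate 2 (-0.49, adjusted p = 0.342). Without control replicate 4 it was 0.64 and just passed the threshold (adjusted p = 0.0486).

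Klrb1a (ENSMUSG00000030361, 128609227 to 128623533, minus strand) was near the filter, at 39.0, 16.9 and 13.8 in controls and 8.07, 12.0 and 18.7 in cKOHet libraries. These values overlapped, and the change of -0.73 had a wide 95% interval (-1.82 to 0.36, adjusted p = 0.363). It was the 1 member that was not highest in control replicate 4.

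The makeup of the NKR-P1 transcripts differed between the groups. Per kilobase of exon, Klrb1c held 76.2% to 88.0% of the sum of the 4 genes in controls and 83.4% to 84.2% in cKOHet libraries. Klrb1b held 3.62%, 3.74% and 2.59% in controls and 9.98%, 11.8% and 9.92% in cKOHet libraries, and these ranges were apart. Klrb1f held 12.3%, 15.7% and 8.58%, against 5.07%, 1.84% and 4.43%, also apart. These shares are a description, with no test. In GENCODE, a transcript model named Gm44511 spans Klrb1c and Klrb1b and shares 413 of 2961 exon bases with the first and 599 of 2228 with the second, so reads there may be lost or split. Apart from that model, 6.4% of the 50-base windows of Klrb1a occur in Klrb1c.

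Klrg1 encodes an inhibitory receptor that binds cadherins and marks effector lymphocytes late in their differentiation. It lies outside the gene complex of the other 9 genes, 6326 kb from Klrb1a on chromosome 6 (ENSMUSG00000030114, 122270596 to 122282882, minus strand). Klrg1 was at 22.0, 20.2 and 27.6 in controls and 185, 408 and 168 in cKOHet libraries. All cKOHet libraries were far above all controls, and cKOHet replicate 2 was the highest. Klrg1 rose by 3.28 on the log2 scale (SE 0.33, adjusted p = 3.05e-06), a 10.9-fold difference of means.

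Klrg1 was called in all 6 fits with a library left out, with a log2 fold change of 2.88 without cKOHet replicate 2 (adjusted p = 3.06e-05). Cd8a was also highest in cKOHet replicate 2, at 237, 1657 and 440.2 in cKOHet replicates 1, 2 and 4, so that the other cKOHet libraries were above the controls as well. Cd8b1, the second CD8 chain, was at 15.1, 35.4 and 13.6 in cKOHet libraries and 3.56, 31.5 and 16.9 in controls, and these overlapped. The part of CD8 T cells in the Klrg1 values was not tested.

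Levels can be compared between genes only per length. The lengths used merge the exons of all annotated transcripts, from 1281 bases in Klrd1 to 7183 in Klrk1. The order and all values per kilobase thus depend on which transcripts are annotated. Per kilobase of exon, the order in controls was Klrb1c (457 ± 377, SD, n = 3), Klrd1 (312 ± 131), Klrc1 (240.0 ± 195), Klrk1 (128 ± 37.8), Klre1 (64.6 ± 29.8), Klrb1f (57.3 ± 25.7), Klrc2 (33.0 ± 10.8), Klrg1 (16.4 ± 2.75), Klrb1b (16.4 ± 8.78) and Klrb1a (14.6 ± 8.64). Each neighbour in that order overlapped the next over its libraries, except Klrc2 and Klrg1. In cKOHet libraries the first places went to Klrb1c (374 ± 75.0), Klrd1 (209 ± 42.1), Klrg1 (179 ± 94.6) and Klrc1 (175 ± 41.5), and Klrg1 overlapped both Klrd1 and Klrc1. Klrg1 thus moved from rank 8 to rank 3, and Klre1 from rank 5 to rank 9 (11.7 ± 5.62). Klrb1b moved from rank 9 to rank 6 (46.5 ± 5.52), where it overlapped Klrk1 at rank 5 (47.6 ± 15.0).

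The spread between controls was wide and ran in the same direction for most of these genes. Control replicate 4 had the highest control value for 9 of the 10, and control replicate 2 the lowest for 9. Over all genes tested, these libraries were highest or lowest in 35.7% and 34.2%. In the cKOHet group, replicate 2 was lowest for 8 of the 10, against 29.9% of all genes tested, and highest for Klrg1. The ratio of the highest to the lowest control was 5.17 for Klrc1 and 4.82 for Klrb1c but 1.37 for Klrg1, and its median over all genes tested (with 1 added to each value) was 1.32. Xist was at 1.17 in control replicate 4 and 0.0816 in cKOHet replicate 4, and at 4337 to 5657 in the other 4 libraries, so the animals behind the replicate 4 libraries differ from the rest in Xist. A term for low Xist left the same number of receptor genes called.

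**Figure D3:**
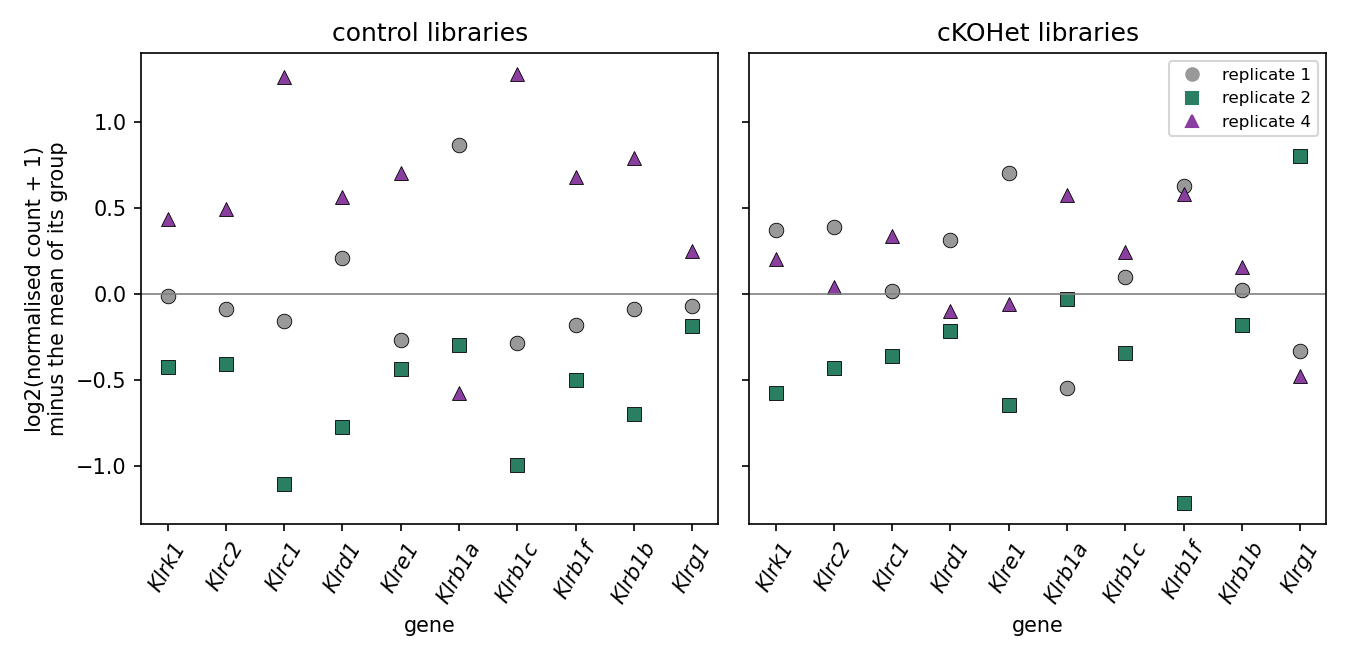
Each library's log2(normalised count + 1) minus its group mean (vertical axis) for the 10 genes, in controls (left) and cKOHet libraries (right), by replicate number. Control replicate 4 lies on top for 9 genes, and cKOHet replicate 2 at the bottom for 8 and on top for Klrg1.

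Apart from Klrg1, the genes sit in the natural killer gene complex. From Klrb1a to the Ly49 gene Klra1, a stretch of 1778 kb, 28 genes were tested, of which 10 rose and 7 fell. The shares over all genes tested were 11.5% and 9.97%. The 6 tested genes in the 101 kb from Klre1 to Klrc1 all had log2 fold changes below 0. That of Klrc1 turned positive without control replicate 4 (0.47) or cKOHet replicate 2 (0.018). Klrc1 also shares sequence with Klrc2 and Klrc3, so their signs are not fully separate. Klre1, Klrk1 and Klrc2 were called there, and Klrd1, Klrc1 and Klrc3 (-0.76, adjusted p = 0.187, named after its values were seen) were not. The Ly49 genes begin 220.0 kb further on with Klra5, and 7 of 10 tested rose and none fell, with a median of 2.40. Klra8 and Klra14-ps were under 10 in every control and passed the filter only through cKOHet libraries. They could thus only rise, and they enter both the count and the median. Klra13-ps and Klra14-ps are pseudogenes. The Ly49 genes are close copies of each other, so reads may be split among them. On the other side, between Klrb1b and Klrb1f, 3 neighbours fell: BC035044 (-4.64, adjusted p = 6.63e-05), Clec2i (-3.72) and the pseudogene BC064078 (-1.96, adjusted p = 0.00046). With a cKOHet mean of 0.60, BC035044 passed the filter only through controls and could only fall. BC035044 overlaps Clec2i on the opposite strand, and whether the counting used strand is not stated in those sources. BC035044 and BC064078 were named after their values were seen.

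**Figure D4:**
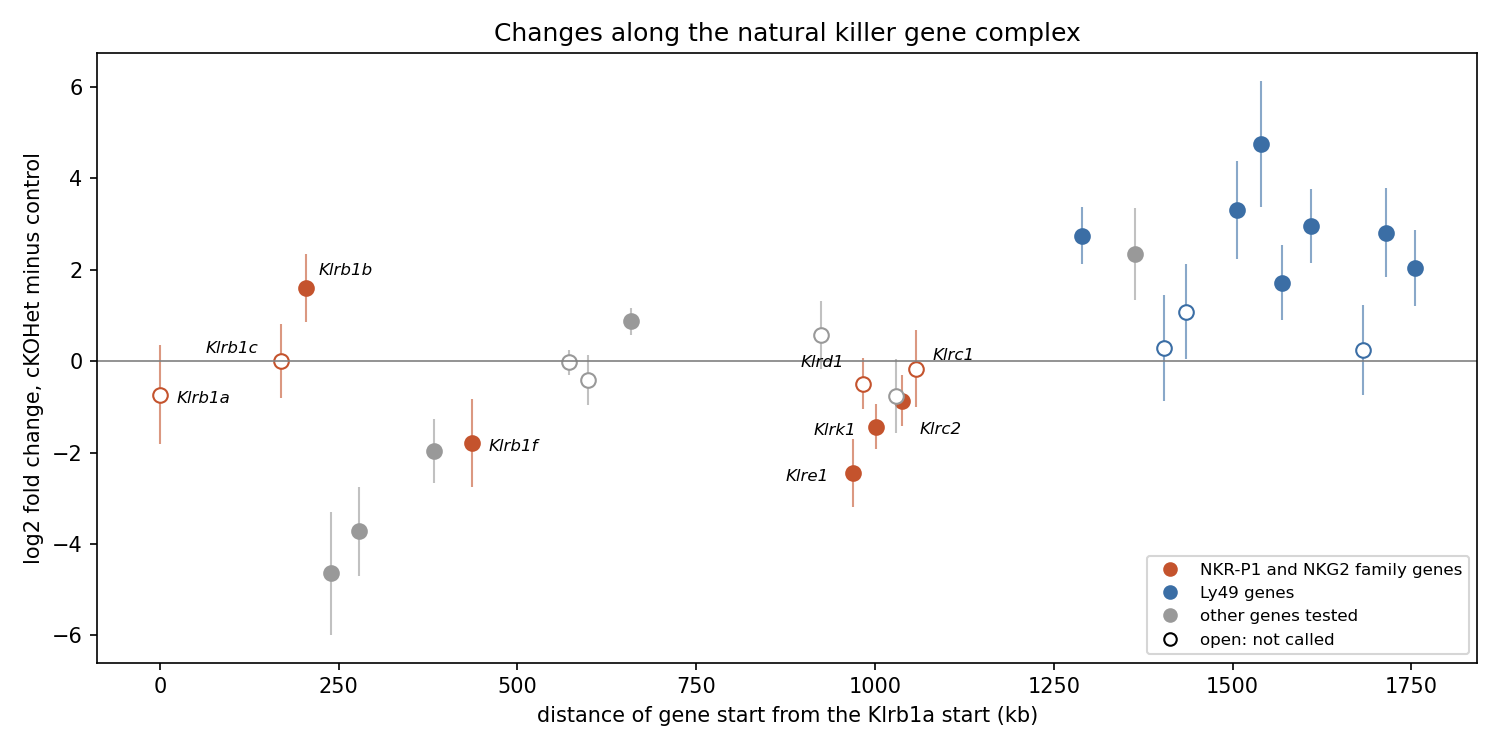
Log2 fold change (cKOHet minus control, with 95% interval) of the 28 tested genes of the natural killer gene complex against the distance of each gene's start from that of Klrb1a, in kb. Filled points were called, with 7 Ly49 genes above 0 at the right and Klre1, Klrk1 and Klrc2 below 0 near the middle.

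Ligands of these receptors were followed in the same cells. Of 18 ligand genes listed, 4 were tested, and 1 fell, against 9.97% of all genes tested. Clec2i, which encodes the Klrb1f ligand Clr-g, was at 243, 119 and 223 in controls and 30.2, 6.33 and 11.5 in cKOHet libraries (log2 fold change -3.72, SE 0.46, adjusted p = 2.44e-05). Receptor and ligand of this pair were thus both lower in cKOHet libraries. Clec2d, the Klrb1b ligand, was at 1185 ± 117 and 1169 ± 162 (adjusted p = 0.927), and H2-T23, which encodes Qa-1, at 2895 ± 299 and 2996 ± 266 (adjusted p = 0.826). Ulbp1, a ligand of NKG2D, was at 38.6 ± 10.5 and 71.0 ± 10.5 and missed the threshold (adjusted p = 0.0521). These 3 ligands were named after their values were seen.

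Of 25 adaptor, kinase and phosphatase genes that act below these receptors, 5 rose and 6 fell, with a median of 0.05. Among all genes tested, 11.5% rose and 9.97% fell. Ptpn6, which encodes the phosphatase SHP-1 that inhibitory tails recruit, rose from 2006, 1577 and 2242 to 4090, 4603 and 4726 (log2 fold change 1.22, SE 0.14, adjusted p = 1.02e-05). The ranges were far apart. Sh3bp2, an adaptor of the Syk and Vav pathway, fell from 393 ± 59.7 to 99.9 ± 9.49, and the kinase gene Fyn from 2852 ± 83.3 to 1619 ± 178. The phospholipase genes, tied at the fourth place of adjusted p, went opposite ways, with Plcg1 falling from 2454 ± 140 to 1682 ± 210.0 and Plcg2 rising from 18 ± 5.50 to 67.3 ± 29.7. Tyrobp, which encodes DAP12, was called higher although the groups overlapped (22.9, 28.6 and 38.1, against 98.7, 92.9 and 34.4; adjusted p = 0.0462). Fcer1g was at 50.6 ± 11.6 and 67.9 ± 14.6 and was not called (adjusted p = 0.369). Tyrobp and Fcer1g were singled out as receptor adaptors after their values were seen.

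Of 12 transcription factors that shape NK and innate-like T cells, 9 rose and none fell, with a median of 1.06. Over all genes tested, 11.5% were called higher and 9.97% lower. Eomes, 1 of the 9, was near the filter and its groups overlapped (adjusted p = 0.039). It was at 0.81, 12.6 and 0.07 in controls and 14.1, 26.2 and 12.5 in cKOHet libraries, and was named after its values were seen. Zeb2, a factor of late effector differentiation, rose from 13.1 ± 6.84 to 156 ± 17.2 (log2 fold change 3.60, adjusted p = 4.94e-06). Prdm1, which encodes Blimp-1, rose by 1.37, and Tox2 and Ikzf2 were also called higher. Tox2 was at 0 to 0.11 in controls, so it passed the filter only through cKOHet libraries and could only rise. Of the other lectin genes listed, Cd69, an activation marker, rose from 443 ± 34.9 to 816 ± 120 (log2 fold change 0.87).

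For each called receptor, the 2 protein-coding genes with the most similar profile were found among 8590 by the smallest root mean square difference over the 6 libraries of log2 values set against the control mean. Klrg1 was closest to Mturn (0.24) and Plek (0.26), and Plek was also highest in cKOHet replicate 2 (222, 678 and 340.2). Klrk1 was closest to Tuba4a and Parp8 (both 0.21), and Klre1 to Sh3bp5 (0.35) and Tnfrsf26 (0.41). Klrb1b was closest to Cyp4v3 (0.16) and Klf7 (0.19), Klrc2 to N6amt1 (0.09) and Polg2 (0.16), and Klrb1f to Tmem243 (0.42) and Acpp (0.45). Klrb1f and Klre1 had no gene nearer than 0.35.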

How the data were processed

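Libraries were made from total RNA of sorted liver cells with RNeasy mini kits and the Ovation Ultralow system, per the labels' protocols. Each gene has 1 signal value per library in the deposited table, named as normalised counts from HTSeq. The submitters' processing notes list Trimmomatic 0.33, STAR, HTSeq 0.6.1, DESeq2 and the mm10 build, and the sources used here do not give settings, annotation, strand or depth. The values are not whole reads, so no count model was run. GENCODE M21 named 12870 of 12942 identifiers, and gave positions and exon lengths, merged over all transcripts of a gene.

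A gene was tested if 3 or more of the 6 libraries reached 10, which held for 11226 genes. The test was limma 3.58.1 (R 4.3.3) on log2(value + 1), moderated with a trend of variance on mean level, and p-values were adjusted by Benjamini-Hochberg across the tested genes. This scale understates changes of low genes. The fit was tested on simulated data with the same variance setting for all genes and no library effects. That setting does not match the wide spread of some of these receptors between controls. Of 6 libraries, 3 against 3, no exact permutation test could give a p below 0.1, so none is reported. Since no label names the mice, the p-values reflect only how far these libraries differ, which may be technical. The receptor genes and lists were chosen with earlier results of these data known. Named genes were the 10 receptors, Ets1 and Tbx21, up to 4 called genes of each list in order of adjusted p (ties kept), or 2 if no gene was called, and 2 genes of similar profile for each called receptor. Other genes, among them single markers, ligands and receptor adaptors, were named after their values were seen. Same-numbered libraries were not treated as pairs. Alternatives covered pseudocount, filter, scaling, variance model, library weights, a replicate block, a term for Xist, the threshold and each library left out on the same genes. Protein sequences were not analysed here.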

Additional observations from a re-analysis of the deposited data

How the results depend on the processing

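Klrg1, Klrb1b, Klre1 and Klrk1 kept their direction and their call under all 18 alternatives run. With another filter, variance model or threshold, or the replicate or Xist term, the fold change cannot move, so only the call could change. With 1 library left out, values ranged from -2.10 to -1.18 for Klrb1f, -1.07 to -0.62 for Klrc2, -0.88 to -0.21 for Klrd1, -0.71 to 0.47 for Klrc1 and -0.49 to 0.64 for Klrb1c, with 1883 to 2207 genes called in all. Klrb1c was -0.007 with median-of-ratios scaling. Without the mean-variance trend the calls of Klrb1f (-1.78) and Klrc2 (-0.86) ended, and at an adjusted p under 0.01 that of Klrc2 (-0.86), with 1476 genes called in place of 2407. The cause was not tested. With the replicate number as a replicate block, 6 of the 10 receptor genes were called, the same number as without it, and 2412 genes in all. The correlations of deviations between same-numbered libraries were 0.092, 0.088 and 0.055, and each library correlated best with its own number, a hint from the data only. Klrb1a was not tested with the filter of 50. Depth is unknown, so the counting error behind low values could not be given.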
